A study of Mus musculus with 7 samples.

Results

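Macrophages that had entered the bridge of a repaired sciatic nerve by day 5 were compared with macrophages taken from the same site at day 14. The comparison rested on 5 of the 7 RNASeq libraries of the series, 3 from day 5 (replicates 1 to 3) and 2 from day 14 (replicates 1 and 2), chosen by the time point in the sample labels. The cells came from BALB/cJ mice, an inbred strain with no engineered allele, whose left sciatic nerve was cut and sutured into a conduit, so both groups shared the injury, the repair and the analgesic, and no uninjured nerve is among the libraries used here. Macrophages were sorted from digested bridge tissue as lineage-negative cells with F4/80, CD14, CD11b and CD16/32 on the surface. The age and sex of these mice are not given in the sources used here, and whether a library holds cells of 1 mouse or of several was not established, so p-values measure the spread between libraries, which may be partly technical. The remaining 2 libraries, from day 28, entered the fit to share its estimate of the spread.

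A cut nerve is invaded by blood monocytes, which turn into macrophages inside the gap. These cells clear myelin and dead tissue, release chemokines that call in further leukocytes, respond to the low oxygen of the unvascularized bridge, and provide growth factors for endothelial cells, Schwann cells and axons. In the following weeks the acute inflammatory state of such cells usually gives way to states linked to lipid handling, antigen presentation and matrix remodeling. The question of the comparison was which of these programmes were higher or lower at day 14 than at day 5.

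The 5 libraries held 18027190 to 26167372 fragments assigned to genes, and 13209 to 13521 genes exceeded a floor of 3 fragments in each. Levels are given as FPKM, fragments scaled to transcript length and library size, and values for 1 gene are listed in the order of the replicate numbers. Fold changes are log2 ratios of day 14 over day 5 from edgeR's quasi-likelihood fit, and a gene was called higher or lower at a Benjamini-Hochberg adjusted p under 0.05. The SE printed with a fold change is not an output of that test. It was derived as the absolute log2 fold change divided by the square root of the test's F value. Day 14 replicate 1 lay nearer to day 5 (Pearson r of 0.9551 to 0.9621 across 7613 genes) than day 14 replicate 2 did (0.9338 to 0.9374), while replicate 2 lay nearer to day 28 (0.9586 and 0.9627 against 0.9338 and 0.9423 for replicate 1). The points of these correlations are genes, which are not independent replicates.

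The sorted cells carried high levels of macrophage genes at both times. Csf1r, the receptor for the macrophage growth factor CSF-1, was at 434, 411 and 406 FPKM at day 5 and 493 and 454 FPKM at day 14. Of the 5 genes of the sorting markers, Cd14 was called lower (log2 fold change -0.75, SE 0.16, adjusted p = 0.0357), which is no independent finding since cells were selected on its product. The F4/80 gene Emr1 averaged 409.5 ± 54.2 FPKM on day 5 (SD, n = 3) against 297 ± 67.4 FPKM on day 14 (SD, n = 2), with adjusted p = 0.139. Itgam, the gene of CD11b, averaged 361 ± 30.7 and 238 ± 52.5 FPKM (adjusted p = 0.0754), where ± is the SD over the same 3 and 2 libraries, as in all paired means below. Fcgr3 and Fcgr2b, the CD16/32 genes, had log2 fold changes of 0.16 and 0.10, neither past the threshold.

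Of 12858 genes tested, 614 (4.78%) were called, 365 higher at day 14 (2.84%) and 249 lower (1.94%). The median log2 fold change was 1.22 for the genes called higher and -0.72 for those called lower, against 0.027 over all genes tested. A stricter set required in addition a 2-fold difference of mean FPKM and a mean of at least 5 FPKM at 1 of the days, and 150 genes met it (1.17%), 99 higher and 51 lower, with medians of 1.42 and -1.25. The day 5 and day 14 libraries did not overlap for any of the 614 genes, but this was also so for 43.2% of all genes tested. The number called depended on each library. It was 63, 106 and 52 without day 5 replicates 1, 2 and 3, 1728 and 285 without day 14 replicates 1 and 2, and 359 and 322 without day 28 replicates 1 and 2. Without day 14 replicate 1 or 2 the time point was represented by 1 library, which was assumed to vary like the other groups. In a bulk library, a change in the share of cells that express a gene and a change in RNA per cell cannot be told apart, and this holds for all results that follow.

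**Figure D1:**
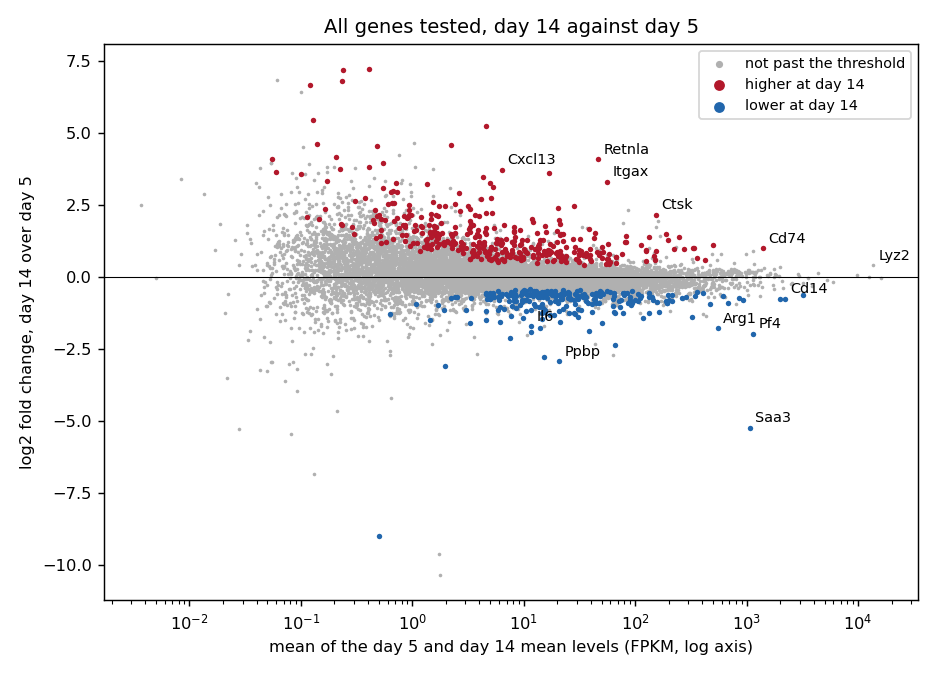
Log2 fold change of day 14 over day 5 (vertical axis) against the mean level of both days (horizontal axis, FPKM, log scale) for the genes tested, each point 1 gene, red for the 365 genes called higher, blue for the 249 called lower and gray for the rest. More red than blue points lie far from 0, and Saa3 (log2 fold change -5.23) lies far below the other abundant genes.

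The genes with the largest increases in the stricter set had different roles. Retnla, which encodes the secreted protein RELM-alpha induced by IL-4 and IL-13, was at 3.21, 6.0 and 6.32 FPKM at day 5 and 117 and 58.4 FPKM at day 14 (log2 fold change 4.10, SE 0.40, adjusted p = 0.0051; chr16:48842551-48844461, GRCm38). Every day 14 value was many times every day 5 value. Itgax encodes the integrin CD11c, found on dendritic cells and on many tissue macrophages. It was at 6.41, 18.3 and 6.55 FPKM at day 5 and 34.1 and 170.4 FPKM at day 14 (log2 fold change 3.31, SE 0.62, adjusted p = 0.0253; chr7:128129547-128150657), so most of its increase lay in replicate 2, and the log2 fold change was 1.72 without that library. Ephx1, an epoxide hydrolase, went from 1.26, 4.84 and 1.65 at day 5 to 16.4 and 45.7 FPKM at day 14 (log2 fold change 3.62, SE 0.53, adjusted p = 0.0136), again with the higher value in replicate 2.

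Penk, the precursor of the enkephalin opioid peptides, was at 0.813, 0.963 and 1.54 FPKM at day 5 and 4.65 and 14.4 FPKM at day 14 (log2 fold change 3.13, SE 0.45, adjusted p = 0.0133; chr4:4133531-4138819). Its level was low but no day 5 library reached the day 14 values. Wfs1, which encodes a membrane protein of the endoplasmic reticulum, rose from 1.31 ± 0.292 FPKM (SD, n = 3) to 8.76 ± 4.56 FPKM (SD, n = 2), with adjusted p = 0.00785. Atp6v0d2, a subunit of the proton pump that acidifies lysosomes, went from 7.47, 12.1 and 6.66 at day 5 to 28.2 and 67.9 FPKM at day 14 (log2 fold change 2.48, SE 0.35, adjusted p = 0.0133; chr4:19876841-19922605). Slc9a3r2, a scaffold protein of membrane transporters, was at 0.855, 1.4 and 0.699 at day 5 and 3.6 and 14.2 FPKM at day 14, and its log2 fold change was 3.93 without replicate 1 and 1.93 without replicate 2 of day 14. Plekhg5, a guanine nucleotide exchange factor, had the opposite order of the day 14 libraries, with 8.03 and 2.98 FPKM against 0.934, 1.71 and 0.595 FPKM at day 5.

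Mt3, a metal-binding metallothionein, had the largest fitted change in the stricter set, but on few fragments. It had 2, 2 and 1 fragments in the day 5 libraries and 17 and 114 in those of day 14. The ratio of its pooled shares of fragments was 46.9 (95% exact counting interval 19.6 to 146.9), an interval that covers counting error only. Ear2, a ribonuclease of eosinophils and some macrophages with near-identical paralogs between which reads may be split, had 0, 14 and 10 fragments at day 5 and 66 and 100 at day 14. Of the 365 genes called higher, 10 had at most 3 fragments in every day 5 library, and of the 249 called lower, 1 had at most 3 in both day 14 libraries, so their fold changes depend on the fit's handling of counts near 0.

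The largest decrease of the stricter set was that of Saa3 (chr7:46711998-46715700), a serum amyloid A protein that macrophages secrete in acute inflammation. It was at 3262, 640.1 and 2320 FPKM at day 5 and 72.2 and 38.3 FPKM at day 14 (log2 fold change -5.23, SE 0.67, adjusted p = 0.0106), and this was also the largest loss of mean FPKM of any gene. The lowest day 5 library still held more than every day 14 library by a wide margin. Arg1, the arginase that competes with nitric oxide synthase for arginine, was at 998, 656 and 893 at day 5 and 235 and 262 FPKM at day 14 (log2 fold change -1.76, SE 0.22, adjusted p = 0.00926; chr10:24915221-24927484). Serpinb2, an inhibitor of plasminogen activators, was at 139, 119 and 75.9 at day 5 and 35.95 and 7.31 FPKM at day 14 (log2 fold change -2.37, SE 0.55, adjusted p = 0.0436), with the lower day 14 value in replicate 2.

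Further down, Gja1, the gap junction protein connexin 43, was at 21.4, 18.2 and 15.3 FPKM at day 5 and 6.64 and 3.22 FPKM at day 14 (log2 fold change -1.89, SE 0.28, adjusted p = 0.0135; chr10:56377330-56402513). Ly6a, the surface protein Sca-1, went from 77.8, 46.8 and 55.1 at day 5 to 23.8 and 9.21 FPKM at day 14 (adjusted p = 0.0383). Cd38, an enzyme that consumes NAD, went from 93.96, 63.1 and 67.5 at day 5 to 29.2 and 20.7 FPKM at day 14 (adjusted p = 0.0106; chr5:43868553-43912375). In all 3 genes replicate 2 lay below replicate 1 at day 14, and both lay below day 5. Mmp27, a matrix metalloproteinase, had a log2 fold change of -2.13 (SE 0.41), and the pseudogene Slfn10-ps, whose reads may also come from related Slfn genes, one of -1.55 (SE 0.22).

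**Figure D2:**
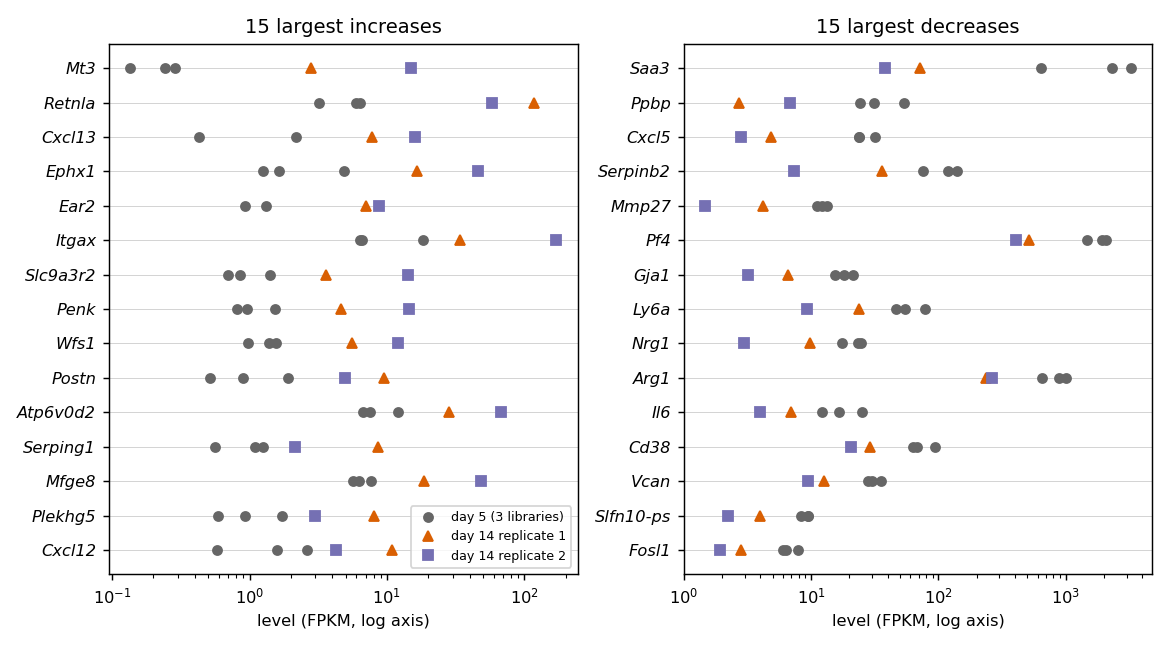
FPKM (log axis) in each library for the 15 genes with the largest increase (left) and the 15 with the largest decrease (right) among the 150 of the stricter set, with gray circles for the 3 day 5 libraries, orange triangles for day 14 replicate 1 and purple squares for day 14 replicate 2. The day 14 markers lie to the right of all day 5 markers on the left and to the left of them on the right, and values of 0 (1 day 5 library each of Cxcl13 and Ear2) have no marker.

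To read the 614 genes by function, 35 lists of genes of known programmes were used, of which 657 genes were tested and 105 called. A list is described by how many of its tested members were called and by its median log2 fold change, against 4.78% and 0.027 over all genes. No list was tested as a whole. The 105 calls became 18, 29 and 16 without day 5 replicates 1, 2 and 3, 231 and 70 without day 14 replicates 1 and 2, and 74 and 72 without day 28 replicates 1 and 2. The median of 9 of the 35 lists had opposite signs with day 14 replicate 1 alone and with replicate 2 alone. The lists with more than 1 in 4 of their tested members called were those of mitosis, the hypoxia response, MHC class II presentation, the neutrophil-attracting CXC chemokines, the other CXC chemokines, the pattern receptors, the type 2 activation genes, the resident-type macrophage genes, the matrix proteases, the coagulation genes and the integrins.

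**Figure D3:**
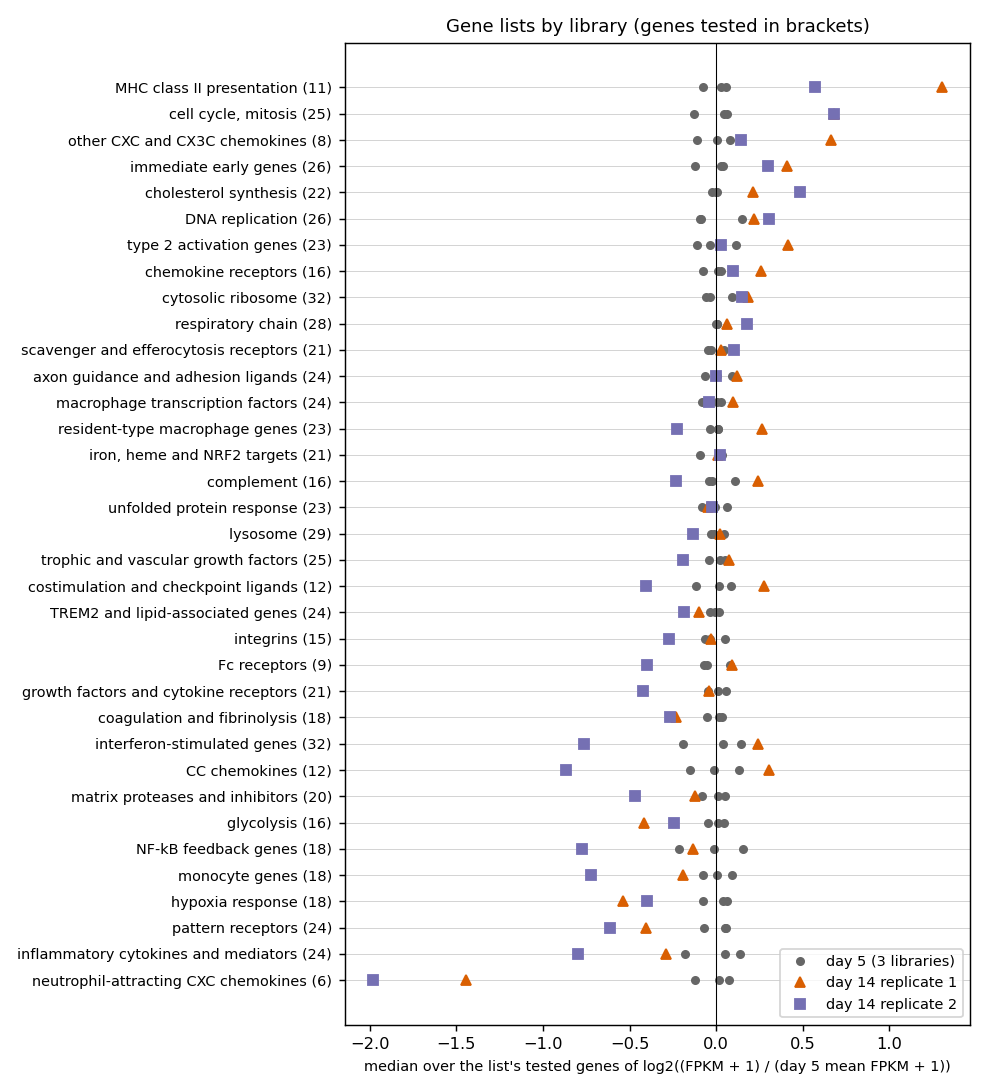
Median over the tested genes of each list of log2((FPKM + 1) / (day 5 mean FPKM + 1)), horizontal axis, in each library, with gray circles for day 5, orange triangles for day 14 replicate 1 and purple squares for day 14 replicate 2. Both day 14 libraries lie above day 5 for mitosis and MHC class II and below it for the hypoxia response and the neutrophil-attracting CXC chemokines, whereas they lie on opposite sides of 0 for the interferon-stimulated genes and the CC chemokines.

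Many genes of cell division had higher levels at day 14. Of 25 mitosis genes tested, 10 were called higher and none lower, 24 had a log2 fold change above 0, and the median was 1.01. The median was 1.04 without day 14 replicate 1 and 0.97 without replicate 2, with 10 and 2 members called. Without day 5 replicates 1, 2 and 3 the members called were 0, 1 and 1, and without day 28 replicates 1 and 2 they were 8 and 8. Ccnb1, which encodes cyclin B1, the partner that activates CDK1 at mitotic entry, was at 2.0, 2.0 and 2.07 FPKM at day 5 and 4.0 and 4.11 FPKM at day 14 (log2 fold change 1.01, SE 0.19, adjusted p = 0.0268; chr13:100778650-100786570). Both groups were tight and well apart. Ccna2, the cyclin of S and G2 phase, was at 1.71, 2.75 and 2.73 at day 5 and 5.78 and 5.26 FPKM at day 14 (log2 fold change 1.21, SE 0.23, adjusted p = 0.0249). Bub1b, a kinase of the spindle checkpoint, was at 0.935, 0.812 and 1.12 at day 5 and 2.55 and 2.94 FPKM at day 14 (log2 fold change 1.53, SE 0.22, adjusted p = 0.0134). Cenpe, a kinesin of the kinetochore, was at 0.539, 0.663 and 0.647 at day 5 and 1.2 and 1.38 FPKM at day 14 (log2 fold change 1.08, SE 0.23, adjusted p = 0.0354).

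The other mitosis genes called were Cdk1, Top2a, Kif11, Cenpf, Prc1 and Racgap1, with log2 fold changes from 0.91 (Kif11, a spindle kinesin) to 1.54 (Prc1, a crosslinker of spindle microtubules). Members that did not pass the test included Plk1 (1.35), Birc5 (1.36) and Aurka (0.36). Mki67, the gene of the proliferation marker Ki-67, went the other way, at 18.4, 16.2 and 12.4 FPKM at day 5 and 14.6 and 8.89 FPKM at day 14 (log2 fold change -0.41, adjusted p = 0.387), and was not called.

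Genes of DNA synthesis gave fewer calls. Of 26 tested, 3 were called higher, 24 lay above 0, and the median log2 fold change was 0.39. The members called were 6 without day 14 replicate 1 and 0 without replicate 2 or any 1 day 5 library. Rrm2, the subunit of ribonucleotide reductase that is made in S phase, was at 2.12, 1.52 and 3.11 at day 5 and 6.87 and 6.53 FPKM at day 14 (log2 fold change 1.58, SE 0.32, adjusted p = 0.0314). Mcm5, a subunit of the replicative helicase, was at 4.18, 4.3 and 5.03 at day 5 and 7.03 and 9.26 FPKM at day 14 (adjusted p = 0.0227). Pole, the catalytic subunit of a replicative polymerase, was at 0.332, 0.357 and 0.349 at day 5 and 0.837 and 0.784 FPKM at day 14 (adjusted p = 0.0366). The other helicase genes were uneven, from 0.02 for Mcm4 to 0.83 for Mcm7, and Pcna, the sliding clamp and the most abundant member, was at 149 ± 19.6 FPKM (SD, n = 3) and 127 ± 8.96 FPKM (SD, n = 2) with adjusted p = 0.342.

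Promoters of mitotic genes are known to carry the CCAAT box, bound by NF-Y, and the cell cycle element TTTGAA, bound by the DREAM and MuvB complexes. Both were searched on either strand in the 250 bases before each RefSeq start site (GRCm38.p6). CCAAT occurred in 19 of the 21 mitosis genes that have a promoter in the table (90.5%) and in 13 of 21 replication genes (61.9%), against 37.5% of all 27025 genes with one. TTTGAA occurred in 8 of the 21 mitosis genes (38.1%) and 3 of the 21 replication genes (14.3%), against 18.3% of all. A match is a description of the letters and no evidence of binding. The 150 bases upstream of the start are shown for 3 called genes of the list, since mitosis was the list with the most genes called higher, with both motifs in capitals on either strand (ATTGG is CCAAT and TTCAAA is TTTGAA read from the other strand).
Ccnb1 (chr13:100786487-100786636, minus strand): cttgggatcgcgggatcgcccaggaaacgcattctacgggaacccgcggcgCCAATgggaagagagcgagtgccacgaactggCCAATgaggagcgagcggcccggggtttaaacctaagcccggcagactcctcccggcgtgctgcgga
Top2a (chr11:99024190-99024339, minus strand): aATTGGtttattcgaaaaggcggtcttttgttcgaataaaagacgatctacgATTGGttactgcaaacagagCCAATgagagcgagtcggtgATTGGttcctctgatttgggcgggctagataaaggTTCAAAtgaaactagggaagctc
Cdk1 (chr10:69352913-69353062, minus strand): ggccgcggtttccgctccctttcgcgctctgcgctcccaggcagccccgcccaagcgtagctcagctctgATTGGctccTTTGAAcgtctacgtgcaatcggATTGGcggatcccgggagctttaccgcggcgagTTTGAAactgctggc

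Genes induced by low oxygen had lower levels at day 14. Of 18 hypoxia response genes tested, 8 were called lower, none higher, and all 18 had a log2 fold change below 0, with a median of -0.51. The median was -0.51 without day 14 replicate 1 and -0.59 without replicate 2, with 8 and 5 members called. Without day 5 replicates 1, 2 and 3 the members called were 0, 3 and 0. Hilpda, which coats lipid droplets and slows lipolysis, was at 747, 542 and 589.6 FPKM at day 5 and 356 and 288 FPKM at day 14 (log2 fold change -0.95, SE 0.16, adjusted p = 0.0205; chr6:29272488-29275446). Slc16a3, the lactate exporter MCT4, was at 257, 233 and 259 at day 5 and 124 and 143 FPKM at day 14 (log2 fold change -0.90, SE 0.13, adjusted p = 0.0133; chr11:120948480-120960868). Bnip3, a receptor for mitophagy, was at 89.1, 76.9 and 86.5 at day 5 and 43.1 and 40.1 FPKM at day 14 (log2 fold change -1.01, SE 0.17, adjusted p = 0.0185). In these 3 genes both day 14 libraries lay far below the lowest day 5 library.

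Ddit4, an inhibitor of mTORC1, was at 45.7, 40.4 and 39.8 at day 5 and 24.4 and 14.5 FPKM at day 14 (log2 fold change -1.11, SE 0.20, adjusted p = 0.0209). Egln3, an oxygen-sensing prolyl hydroxylase and itself a target of HIF, had the largest decrease of the list, from 20.5 ± 2.83 FPKM (SD, n = 3) to 8.48 ± 3.38 FPKM (SD, n = 2), with log2 fold change -1.25. Ero1l, P4ha1 and Mif were also called lower, by smaller amounts (-0.82, -0.47 and -0.55). Vegfa, the angiogenic growth factor, was at 212, 195 and 236 FPKM at day 5 and 162 and 193 FPKM at day 14 and was not called (log2 fold change -0.26, adjusted p = 0.306). Hif1a, which encodes the oxygen-regulated transcription factor subunit, was at 124 ± 19.1 and 85.3 ± 14.7 FPKM (adjusted p = 0.122).

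Glycolytic enzymes, many of which are also targets of HIF, moved less. Of 16 tested, 1 was called lower, 14 lay below 0 and the median log2 fold change was -0.34, with 8 lower at an unadjusted p under 0.05 and 7 called lower by DESeq2. Tpi1, triosephosphate isomerase, was at 439, 399 and 434 at day 5 and 286 and 301 FPKM at day 14 (log2 fold change -0.52, SE 0.12, adjusted p = 0.0415). The most abundant enzymes, Pkm and Gapdh, had log2 fold changes of -0.32 and -0.37, neither past the threshold, although both day 14 libraries lay below all day 5 libraries for each.

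The core of the hypoxia response element, ACGTG or GCGTG, was searched in the same 250 bases on either strand. It occurred in 15 of 16 hypoxia genes with a promoter in the table (93.8%) and in 14 of 16 glycolysis genes (87.5%), against 41.5% of all genes. These short letters are common in promoters rich in CpG. In the 150 bases before the start, the called genes Egln3 and Mif held no match. The called genes Slc16a3, Bnip3, Hilpda, Ddit4 and P4ha1 each held at least 1. These bases are shown for Slc16a3 and Bnip3, with the motif in capitals on either strand (CACGT and CACGC are its reverse).
Slc16a3 (chr11:120948917-120949066, plus strand): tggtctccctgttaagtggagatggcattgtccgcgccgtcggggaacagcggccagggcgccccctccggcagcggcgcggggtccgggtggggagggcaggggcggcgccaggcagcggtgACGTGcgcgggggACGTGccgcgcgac
Bnip3 (chr7:138909507-138909656, minus strand): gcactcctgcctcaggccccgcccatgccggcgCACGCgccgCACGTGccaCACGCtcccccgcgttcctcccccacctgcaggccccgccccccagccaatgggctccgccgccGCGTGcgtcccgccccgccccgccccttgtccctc

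Most genes of MHC class II, which presents peptides to CD4 T cells, rose by day 14. Of 11 genes tested in this list, 9 were called higher and none lower, with a median log2 fold change of 1.0. The median was 0.59 without day 14 replicate 1 and 1.32 without replicate 2, with 7 and 9 members called. The members called were 2, 3 and 2 without day 5 replicates 1, 2 and 3 and 5 without either day 28 library. Ciita, the master coactivator of the class II locus, was at 2.11, 2.49 and 1.82 FPKM at day 5 and 7.56 and 6.43 FPKM at day 14 (log2 fold change 1.72, SE 0.15, adjusted p = 0.00475; chr16:10480059-10528418). Cd74, the invariant chain that guides class II molecules to endosomes, was at 1002, 1014 and 828 at day 5 and 2343 and 1411 FPKM at day 14 (log2 fold change 1.0, SE 0.20, adjusted p = 0.0329). H2-DMb1, a chain of the peptide editor DM, was at 13, 13.9 and 12.8 FPKM at day 5 and 35.1 and 27.9 FPKM at day 14. H2-DMb2, similar enough in sequence to share its reads, was at 11.6, 11.9 and 12.4 FPKM at day 5 and 30.3 and 25.1 FPKM at day 14. Both rose, with adjusted p of 0.00557 and 0.0134, as did H2-DMa, the partner chain (log2 fold change 0.82, SE 0.13, adjusted p = 0.0184). Replicate 1 held the higher day 14 value of each of these genes.

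H2-Aa, H2-Ab1, H2-Eb1 and Ifi30 were the other members called higher, with log2 fold changes of 1.02, 1.01, 0.97 and 0.60. Ctss, the protease that trims the invariant chain, was at 3623 ± 164 and 3493 ± 274 FPKM and did not pass the test (-0.04). Genes of costimulation gave 1 call. Of 12 tested, Cd276, an inhibitory ligand of the B7 family, was the one called higher (1.27, 1.81 and 0.963 at day 5 and 3.13 and 8.79 FPKM at day 14; log2 fold change 2.17, SE 0.42, adjusted p = 0.0272), while Cd40, Cd80 and Cd86 had log2 fold changes of -0.60, -0.06 and -0.23.

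**Figure D4:**
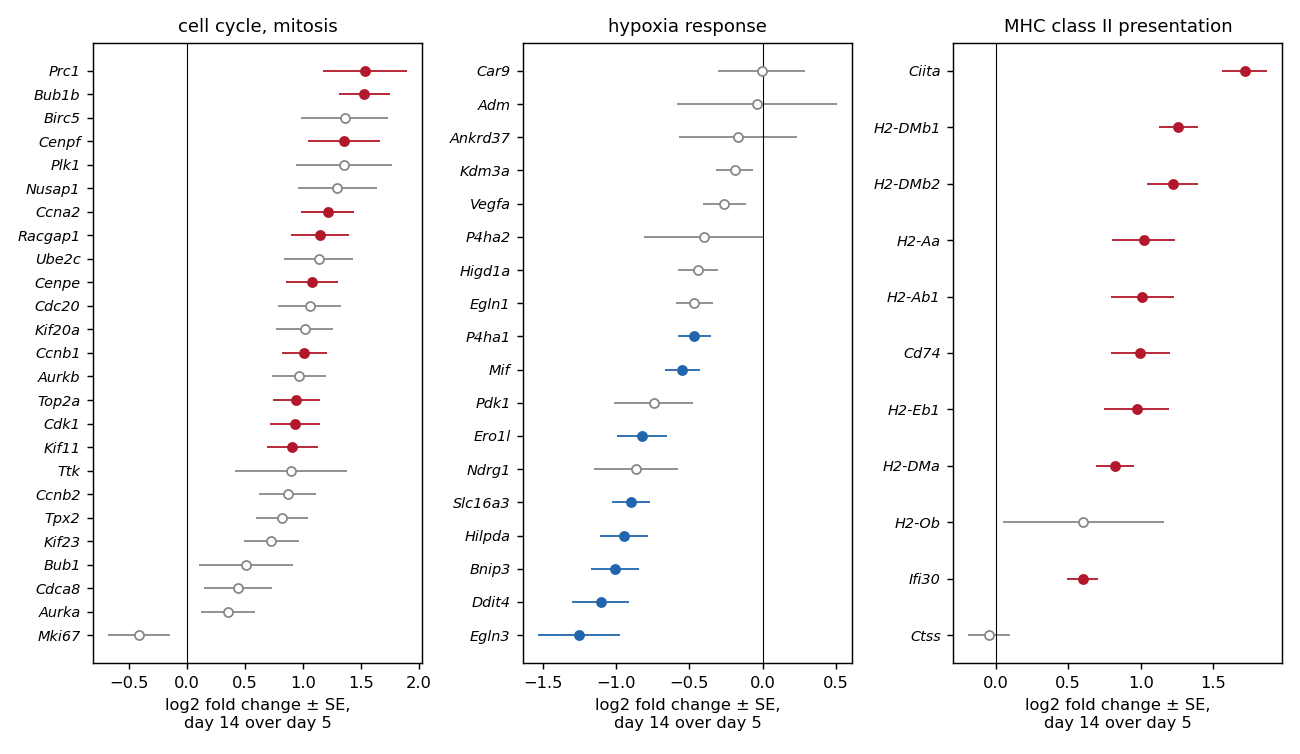
Log2 fold change of day 14 over day 5 with its SE (horizontal axis) for the tested members of the mitosis, hypoxia response and MHC class II lists, filled red where called higher, filled blue where called lower and open where not past the threshold. Of the 25 mitosis genes only Mki67 lies below 0, the 18 hypoxia genes lie at or below 0, and 9 of 11 class II genes are filled red.

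Chemokines differed by family. The 6 CXC chemokines that attract neutrophils or come from the same gene cluster on chromosome 5 had a median log2 fold change of -1.68, and 5 of the 6 were called lower. The members called were 3 without any 1 day 5 library, 6 and 4 without day 14 replicates 1 and 2, and 4 without either day 28 library. Cxcl5 (chr5:90759360-90761624) was at 23.7, 23.9 and 31.7 FPKM at day 5 and 4.82 and 2.82 FPKM at day 14 (log2 fold change -2.79, SE 0.26, adjusted p = 0.00482). Ppbp (chr5:90768518-90770063) was at 31.2, 24.4 and 53.9 at day 5 and 2.7 and 6.79 FPKM at day 14 (log2 fold change -2.91, SE 0.44, adjusted p = 0.0157), and its neighbor Pf4 (chr5:90772435-90773383) at 1924, 1456 and 2067 at day 5 and 519 and 403 FPKM at day 14 (log2 fold change -1.97, SE 0.20, adjusted p = 0.00554). Cxcl3 was at 491, 495 and 419 at day 5 and 220.1 and 135 FPKM at day 14 (log2 fold change -1.39, SE 0.23, adjusted p = 0.0184). All day 14 values of these genes lay below all day 5 values.

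Ppbp and Pf4 are also made by platelets. Of the 8 tested genes of the erythroid and platelet marker list they were the 2 called. In that list 4 genes lay above 0 and 4 below, with a median log2 fold change of -0.15. The median was -2.24 without day 14 replicate 1 and 0.53 without replicate 2. The summed level of the list was 1610 to 2215 FPKM at day 5 and 678.5 and 429.5 FPKM at day 14. Most of it was Pf4, at 1924, 1456 and 2067 FPKM at day 5 and 519 and 403 FPKM at day 14. Pf4 made up less of the sum in day 14 replicate 1 than in the other libraries. The platelet gene Itga2b was at 0.278 ± 0.116 and 0.348 ± 0.0635 FPKM with log2 fold change 0.33. The platelet genes Gp9 and Gp1bb were at 0.310 and 0.064 FPKM on average at day 5 and were too low to be tested. The part of platelets in these values was not tested. Cxcl1 fell from 2518 ± 451 FPKM (SD, n = 3) to 1493 ± 109 FPKM (SD, n = 2) with log2 fold change -0.74, and Cxcl2 was at 3831 ± 635 and 2620 ± 461 FPKM and did not pass the test (adjusted p = 0.0938).

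The binding motif of NF-kB (kappaB) was found in 3 of the 5 genes of this cluster with a promoter in the table (60.0%) and in 7 of 15 NF-kB feedback genes (46.7%), against 8.2% of all genes, in the 250 bases before the start on either strand. Pf4 and Ppbp, also called lower (log2 fold changes -1.97 and -2.91), hold no match in the 150 bases before the start. Cxcl3 and Cxcl1 carry the same match at nearly the same distance from the start. Their 150 bases upstream are shown with the match in capitals. These neighbors had decreases that differed in size (-1.39 and -0.74 on the log2 scale). The part of this motif in the decreases was not tested.
Cxcl3 (chr5:90785951-90786100, plus strand): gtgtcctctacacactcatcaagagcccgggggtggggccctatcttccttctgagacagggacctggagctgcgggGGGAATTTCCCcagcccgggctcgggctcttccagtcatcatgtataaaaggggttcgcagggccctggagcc
Cxcl1 (chr5:90891095-90891244, plus strand): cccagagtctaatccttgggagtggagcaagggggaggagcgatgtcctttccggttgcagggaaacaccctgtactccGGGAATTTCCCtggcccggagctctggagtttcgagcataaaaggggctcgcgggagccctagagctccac

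Of 8 other CXC and CX3C chemokines tested, 3 were called higher and none lower, and with 1 library left out in turn the number was 0 to 2. Cxcl13, which attracts B cells, was at 2.18, 0 and 0.427 FPKM at day 5 and 7.82 and 15.9 FPKM at day 14 (log2 fold change 3.73, SE 0.84, adjusted p = 0.0415; chr5:95956951-95961068), from 51, 0 and 9 fragments at day 5 and 136 and 343 at day 14. DESeq2 did not call Cxcl13 (adjusted p = 0.125), and its log2 fold change ran from 3.13 to 5.74 with 1 library left out in turn. Cxcl12, the ligand of CXCR4 that stromal cells make in abundance, was at 2.61, 1.58 and 0.583 at day 5 and 10.8 and 4.28 FPKM at day 14 (log2 fold change 2.22, SE 0.48, adjusted p = 0.037). Cxcl14 was at 6.08, 8.18 and 6.76 at day 5 and 11.2 and 36.6 FPKM at day 14 (log2 fold change 1.79, SE 0.38, adjusted p = 0.0365). Replicate 1 held the higher value for Cxcl12 and replicate 2 for the other pair. Cxcl10, induced by interferons, was at 18.7 ± 1.01 and 22.4 ± 12.7 FPKM (adjusted p = 0.675).

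Of 12 CC chemokines tested, 1 was called. Ccl24, a ligand of CCR3 that attracts eosinophils, rose from 32.97, 43.8 and 42.2 at day 5 to 68.3 and 55.6 FPKM at day 14 (log2 fold change 0.65, SE 0.14, adjusted p = 0.0395). Ccl2, which attracts monocytes, was at 647, 559.6 and 503 FPKM at day 5 and 366 and 104 FPKM at day 14 and was not called (adjusted p = 0.113). Ccl7, its neighbor in function, was at 682, 602 and 566 FPKM at day 5 and 392 and 92 FPKM at day 14 (adjusted p = 0.116). Ccl8 was at 1045, 884 and 727 at day 5 and 1422 and 413 FPKM at day 14. The day 14 libraries disagreed for these genes, and the list's median was -0.85 without replicate 1, with 5 called lower, and 0.32 without replicate 2, with none called lower. Ccl6, among the most abundant of them, was at 1599, 1539 and 1693 at day 5 and 993 and 1039 FPKM at day 14 (adjusted p = 0.0562), close in both day 14 libraries.

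Genes of acute inflammation lay mostly below 0. Of 24 cytokines and mediators tested, 18 lay below 0, 4 were called lower and 1 higher, with a median log2 fold change of -0.54 (-0.97 without day 14 replicate 1 and -0.29 without replicate 2). The genes called lower were 10 and 2 without these, 1 without any 1 day 5 library and 2 without either day 28 library. Besides Saa3, Il1b fell from 1104, 1205 and 1225 at day 5 to 735 and 618 FPKM at day 14 (log2 fold change -0.79, SE 0.13, adjusted p = 0.0184). Il1a went from 245, 258 and 181 at day 5 to 126 and 71.9 FPKM at day 14 (log2 fold change -1.20, SE 0.24, adjusted p = 0.031). Both are pyrogenic cytokines that act on the IL-1 receptor. Il6 was at 16.6, 25 and 12.2 at day 5 and 6.98 and 3.97 FPKM at day 14 (log2 fold change -1.71, SE 0.38, adjusted p = 0.0388; chr5:30013114-30019981). Csf1, the growth factor that keeps macrophages alive, was the member called higher, at 8.87, 12.6 and 9.92 FPKM at day 5 and 24.8 and 22.7 FPKM at day 14 (log2 fold change 1.14, SE 0.13, adjusted p = 0.00819), with the day 14 libraries close together.

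Several members with lower means were not called. Nos2, the inducible nitric oxide synthase, was at 10.5, 2.85 and 6.34 FPKM at day 5 and 2.03 and 0.0823 FPKM at day 14 (adjusted p = 0.109). Csf3 was at 86.1, 85.98 and 44.7 at day 5 and 24.1 and 4.79 FPKM at day 14 (adjusted p = 0.0567). Ptges, which makes prostaglandin E2, was at 33.3, 23.99 and 12.03 at day 5 and 10.3 and 4.01 FPKM at day 14 (adjusted p = 0.0675). Tnf was at 507 ± 118 FPKM (SD, n = 3) and 366 ± 15.02 FPKM (SD, n = 2), with log2 fold change -0.46. S100a8 and S100a9, calcium-binding proteins that neutrophils hold in abundance, had higher means at day 14 (0.83 and 1.05 on the log2 scale) and were not called either.

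Among the genes by which NF-kB signaling is limited or read out, all 18 tested lay below 0 with a median log2 fold change of -0.39, and 2 were called lower. Ikbke, a kinase of the interferon and NF-kB pathways, was at 124, 119 and 96.9 at day 5 and 67.6 and 53.3 FPKM at day 14 (log2 fold change -0.90, SE 0.15, adjusted p = 0.0189). Nfkbie, an inhibitor of NF-kB, was at 156, 169 and 170.4 at day 5 and 119.7 and 82.5 FPKM at day 14 (log2 fold change -0.70, SE 0.16, adjusted p = 0.0415). The median depended on the library, at -0.77 with 12 called without day 14 replicate 1 and -0.13 with 1 called without replicate 2. Nfkbia, the best known inhibitor, was at 1190 ± 54.9 and 1107 ± 131 FPKM.

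Receptors for microbial and tissue ligands gave 6 lower and 2 higher calls among 24 tested, with a median of -0.42. Of the 6, Cd14 is no independent finding, since cells were selected on its product. The lower calls were 11 and 1 without day 14 replicates 1 and 2, 0, 0 and 1 without day 5 replicates 1, 2 and 3, and 5 without either day 28 library. Fpr1, a receptor for formyl peptides, had the largest decrease, from 46.2, 52.8 and 34.4 at day 5 to 14.6 and 19.3 FPKM at day 14 (log2 fold change -1.38, SE 0.23, adjusted p = 0.0189). Nlrp3, the sensor of an inflammasome, Msr1, a scavenger receptor, Clec4d, a C-type lectin, and Myd88, the adaptor of Toll-like receptors, were called lower as well, with log2 fold changes of -0.82, -0.62, -0.64 and -0.56, besides Cd14. Clec7a, the beta-glucan receptor Dectin-1, went the other way, at 43.9, 56.6 and 49 at day 5 and 104 and 126 FPKM at day 14 (log2 fold change 1.22, SE 0.19, adjusted p = 0.0179), as did Clec4n, Dectin-2, at 83.5, 95.99 and 81.6 at day 5 and 155 and 170.2 FPKM at day 14 (log2 fold change 0.91, SE 0.14, adjusted p = 0.016). None of the 10 Toll-like receptor genes tested was called by edgeR, with adjusted p from 0.0772 to 0.993, and Tlr2, the most abundant, was at 374 ± 45.8 and 252 ± 46.7 FPKM (adjusted p = 0.0772).

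None of 32 interferon-stimulated genes was called in edgeR's test or by DESeq2, and 1 had an unadjusted p under 0.05. Their median log2 fold change was -0.16, but the day 14 libraries differed, 18 genes being above all day 5 libraries in replicate 1 and 30 below them all in replicate 2. Replicate 1 held the higher value of all 32 genes. Irf7, a transcription factor that amplifies the interferon response, was at 609.5, 522 and 433 FPKM at day 5 and 626 and 269 FPKM at day 14, and Bst2, which tethers virus particles, at 348, 318 and 257 at day 5 and 416 and 205 FPKM at day 14. The list's median was -0.77 without replicate 1, with 16 genes called lower, and 0.25 without replicate 2, with none called.

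**Figure D5:**
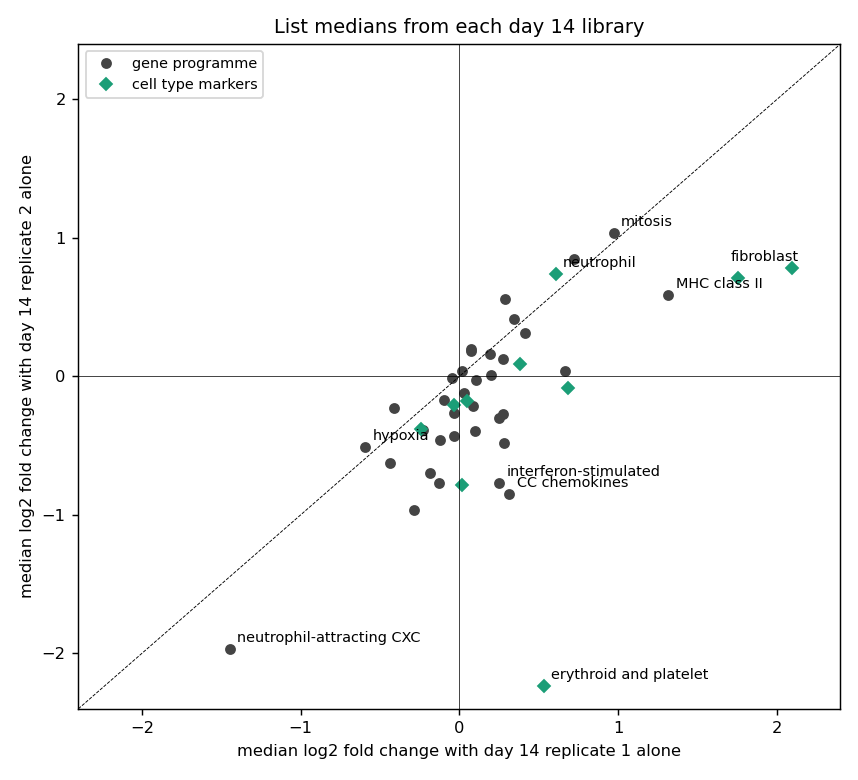
Median log2 fold change over day 5 of each list with at least 5 tested genes, with day 14 replicate 1 as the only day 14 library (horizontal axis) against replicate 2 as the only one (vertical axis), circles for gene programmes and diamonds for cell type markers. Mitosis and hypoxia lie near the dashed line of equality. The neutrophil-attracting CXC chemokines are below 0 on both axes, at -1.44 with replicate 1 and -1.97 with replicate 2. Interferon-stimulated genes and CC chemokines are above 0 on 1 axis and below it on the other, and the fibroblast markers are higher in replicate 1.

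Genes that mark macrophage states were divided. Of 23 resident-type genes tested, 4 were called higher and 2 lower, Ccl24 and Pf4 among them, and with 1 library left out in turn 0 to 8 were called higher and 1 to 7 lower. Cx3cr1, the fractalkine receptor of resident macrophages and patrolling monocytes, was at 4.47, 7.15 and 3.56 FPKM at day 5 and 12.6 and 25.3 FPKM at day 14 (log2 fold change 1.92, SE 0.32, adjusted p = 0.0189). Mgl2, a lectin receptor, was at 1.89, 1.3 and 2.5 at day 5 and 6.18 and 5.58 FPKM at day 14 (log2 fold change 1.64, SE 0.27, adjusted p = 0.0184). Igf1, which supports neurons and muscle, was at 15.6, 16.7 and 12.8 at day 5 and 29.8 and 25.1 FPKM at day 14 (log2 fold change 0.92, SE 0.15, adjusted p = 0.0184). F13a1, the A subunit of coagulation factor XIII, fell from 178, 172 and 169 at day 5 to 90.3 and 39.2 FPKM at day 14 (log2 fold change -1.41, SE 0.30, adjusted p = 0.0365). Mrc1, Folr2 and Cbr2 had lower means that did not pass the test (-0.43, -0.58 and -0.69).

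Of 18 monocyte genes tested, 1 was called, Vcan, the proteoglycan versican, which fell from 30.2, 35.6 and 28.1 at day 5 to 12.7 and 9.53 FPKM at day 14 (log2 fold change -1.55, SE 0.17, adjusted p = 0.00699; chr13:89655312-89742509). Ccr2, the receptor by which monocytes leave the blood, was at 74.8 ± 5.99 and 74.4 ± 11.6 FPKM (log2 fold change 0.0). Ly6c2 was at 78.9 ± 25.3 and 66.2 ± 67.9 FPKM (-0.26). Fn1, fibronectin, was at 555, 867 and 713 at day 5 and 753 and 1742 FPKM at day 14, with replicate 1 of day 14 inside the day 5 range. The list's median log2 fold change was -0.27, and it was -0.70 without day 14 replicate 1 and -0.19 without replicate 2.

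Of 24 genes of the TREM2-linked lipid programme, 2 were called higher and 3 lower, and the median was -0.01. With 1 library left out in turn 0 to 6 were called higher and 0 to 7 lower, the most without day 14 replicate 1. Itgax and Cd9 rose, the latter, a tetraspanin, from 124, 166 and 122 at day 5 to 225 and 489 FPKM at day 14 (log2 fold change 1.39, SE 0.29, adjusted p = 0.0347). Plin2, a coat protein of lipid droplets, fell from 1049, 946 and 1187 at day 5 to 656 and 611 FPKM at day 14 (log2 fold change -0.73, SE 0.14, adjusted p = 0.0231), as did Abca1, which exports cholesterol (277, 257 and 248 at day 5 and 186 and 147 FPKM at day 14; log2 fold change -0.64, SE 0.14, adjusted p = 0.0389), and Ctsl, a lysosomal protease (4203, 3651 and 3959 at day 5 and 2638 and 2407 FPKM at day 14; log2 fold change -0.63, SE 0.13, adjusted p = 0.0342). Apoe, Trem2 and Gpnmb had log2 fold changes of -0.03, 0.42 and 0.17, none past the threshold. Lpl, lipoprotein lipase, was at 52.6, 130.2 and 91.4 at day 5 and 134 and 356 FPKM at day 14 (adjusted p = 0.0773).

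Of 23 genes linked to activation by IL-4, 5 were called higher and 1 lower, the latter Arg1. The higher calls were 2, 3 and 2 without day 5 replicates 1, 2 and 3, and 5 and 7 without day 14 replicates 1 and 2. Besides Retnla, Ear2, Mgl2 and Ccl24, Matk, a kinase that restrains Src family kinases, rose from 10.4, 13.2 and 10.5 at day 5 to 20.1 and 44.1 FPKM at day 14 (log2 fold change 1.51, SE 0.27, adjusted p = 0.0217). Mrc1 and Chi3l3, classical members of the list, had log2 fold changes of -0.43 and -1.01 and were not called. The median was 0.17, and it was 0.04 without day 14 replicate 1 and 0.67 without replicate 2.

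Enzymes of cholesterol synthesis had higher means at day 14 for 18 of 22 genes tested, with a median log2 fold change of 0.45, and 2 were called. Cyp51, which removes a methyl group from lanosterol, was at 1.25, 0.983 and 1.49 at day 5 and 2.09 and 4.47 FPKM at day 14 (log2 fold change 1.42, SE 0.31, adjusted p = 0.0388). Replicate 2 exceeded replicate 1 for 19 of the 22 genes, 11 were called higher without replicate 1 and none without replicate 2.

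The large housekeeping programmes gave no call. Of 28 respiratory chain genes none was called (3 higher at an unadjusted p under 0.05, none called by DESeq2), with a median of 0.11, and Cox4i1 and Atp5b, the most abundant, had log2 fold changes of 0.12 and 0.01. All 32 ribosomal protein genes lay above 0, with a median of 0.17, and none was called by edgeR (6 at an unadjusted p under 0.05, 1 called by DESeq2). Rplp1 was at 1775, 1505 and 1541 at day 5 and 1980 and 1893 FPKM at day 14 and Rps9 at 1291, 1058 and 1063 at day 5 and 1292 and 1262 FPKM at day 14. None of 23 genes of the unfolded protein response was called (1 at an unadjusted p under 0.05, none by DESeq2), with Hspa5 and Calr at 0.10 and -0.02. None of 21 iron, heme and NRF2 genes was called by edgeR (6 at an unadjusted p under 0.05, 2 by DESeq2). Their median was 0.07, and it was 0.04 without day 14 replicate 1 and 0.02 without replicate 2. The ferritin genes Fth1 and Ftl1, among the most abundant transcripts of these cells, had log2 fold changes of 0.07 and -0.01.

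Of 29 lysosomal genes, 3 were called higher and 1 lower. Ctsk, a protease that degrades collagen, was at 62.8, 50.9 and 54.99 FPKM at day 5 and 159.5 and 341 FPKM at day 14 (log2 fold change 2.17, SE 0.27, adjusted p = 0.00926; chr3:95499256-95509362), with both day 14 libraries far above day 5. Ctsf, another cathepsin, was at 4.28, 4.76 and 3.16 at day 5 and 14.4 and 10.02 FPKM at day 14 (log2 fold change 1.59, SE 0.26, adjusted p = 0.0184), and Smpd1, acid sphingomyelinase, rose by less (10.9, 10.8 and 11.6 at day 5 and 14.5 and 16.2 FPKM at day 14; log2 fold change 0.48, SE 0.12, adjusted p = 0.0497). Ctsl, named above, was the 1 called lower. The abundant cathepsins Ctsd, Ctss and Ctsz had log2 fold changes of 0.04, -0.04 and -0.01, so within this family single members moved apart from the rest. Lyz2, lysozyme, had the largest gain of mean FPKM of any gene, from 11874 ± 1222 FPKM (SD, n = 3) to 15597 ± 3931 FPKM (SD, n = 2), but was not called (adjusted p = 0.192).

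Genes that act on matrix gave 3 higher and 4 lower calls among 20 tested, Ctsk and Serpinb2 among them. Without day 5 replicates 1, 2 and 3 the higher calls were 1, 1 and 1 and the lower calls 0, 1 and 0. Mmp19 rose from 109, 139 and 114 at day 5 to 176 and 182 FPKM at day 14 (log2 fold change 0.59, SE 0.14, adjusted p = 0.043). Mmp2 went from 1.33, 0.838 and 0.546 at day 5 to 6.46 and 2.38 FPKM at day 14 (log2 fold change 2.28, SE 0.48, adjusted p = 0.0356), and fibroblasts are its main source. Mmp8, a collagenase that neutrophils store, fell from 5.16, 3.71 and 5.89 at day 5 to 1.69 and 1.54 FPKM at day 14 (log2 fold change -1.60, SE 0.26, adjusted p = 0.0184). Adam9 and Plaur, the receptor of the plasminogen activator urokinase, fell as well, with log2 fold changes of -0.54 and -0.71. Mmp12, the macrophage elastase, was at 18.7, 42.8 and 26.2 at day 5 and 36.5 and 251 FPKM at day 14, with a wide gap between the day 14 libraries, and was not called (adjusted p = 0.0657).

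Of 18 genes of coagulation and fibrinolysis, 1 was called higher and 4 lower, and none was called with any 1 day 5 library left out. F7, coagulation factor VII, rose from 32.1, 34.9 and 32.4 at day 5 to 50.9 and 84.2 FPKM at day 14 (log2 fold change 1.04, SE 0.18, adjusted p = 0.021). F13a1, Serpinb2, Plaur and S100a10, the plasminogen receptor subunit p11, were the 4 called lower, S100a10 from 768, 766 and 707 at day 5 to 525 and 425 FPKM at day 14 (log2 fold change -0.64, SE 0.14, adjusted p = 0.0356). Thbs1, thrombospondin, was at 337, 234 and 289.7 at day 5 and 198 and 52.4 FPKM at day 14 (adjusted p = 0.143).

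Among 25 growth factors tested, 2 were called higher and 2 lower. Pdgfb, which recruits pericytes, rose from 26.3, 25.1 and 24.6 at day 5 to 41.2 and 44.8 FPKM at day 14 (log2 fold change 0.77, SE 0.12, adjusted p = 0.0184), together with Igf1. Areg, amphiregulin, fell from 24.1, 28.7 and 27.4 at day 5 to 9.58 and 11.8 FPKM at day 14 (log2 fold change -1.31, SE 0.19, adjusted p = 0.0134), and Nrg1, neuregulin 1, from 24.6, 17.3 and 23.3 at day 5 to 9.82 and 2.97 FPKM at day 14 (log2 fold change -1.78, SE 0.41, adjusted p = 0.0447; chr8:31814551-32884029). Both of the latter are ligands of ERBB receptors, and neuregulin 1 is the main growth signal of Schwann cells. Ereg and Hbegf, further ligands of that family, had log2 fold changes of -1.04 and -0.13 and were not called. Bdnf and Gdnf, neurotrophic factors, had mean levels of 0 and 0.033 FPKM at day 5 and 0.015 and 0.05 FPKM at day 14 and could not be tested.

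Receptors of cytokines and of chemokines gave few calls. Of 21 cytokine receptor genes 1 was called, Ifnar1, a chain of the type I interferon receptor. Ifnar1 fell from 52.6, 57.2 and 53.3 at day 5 to 41.3 and 30.9 FPKM at day 14 (log2 fold change -0.58, SE 0.14, adjusted p = 0.0492). Tnfrsf1b was at 396 ± 107 and 301 ± 111 FPKM. The median of the cytokine receptor list was -0.15, and it was -0.43 without day 14 replicate 1 and -0.03 without replicate 2. Of 16 chemokine receptor genes Cx3cr1 was called higher and Cxcr7, a scavenger of CXCL12, lower (9.29, 10.5 and 13.8 at day 5 and 2.68 and 5.86 FPKM at day 14; log2 fold change -1.35, SE 0.32, adjusted p = 0.0451). Cxcl12 and Cxcr7 thus moved in opposite directions. None of 9 Fc receptor genes was called by edgeR (3 lower at an unadjusted p under 0.05, 2 by DESeq2), and Fcer1g, their common chain, was at 793 ± 58.4 and 671 ± 79.3 FPKM.

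Among the receptors for dead cells and modified lipids, 2 of 21 tested were called higher and 1, Msr1, lower. Axl, a receptor that takes up apoptotic cells, rose from 25.9, 26.4 and 20.7 at day 5 to 74.4 and 48.5 FPKM at day 14 (log2 fold change 1.34, SE 0.18, adjusted p = 0.0113). Mfge8, which bridges such cells to integrins, was at 6.22, 7.59 and 5.67 at day 5 and 18.7 and 48.7 FPKM at day 14 (log2 fold change 2.39, SE 0.35, adjusted p = 0.0134; chr7:79133768-79149060). Mertk, the related receptor of resident macrophages, was at 25.6 ± 5.21 and 25.3 ± 6.77 FPKM (log2 fold change -0.01). Of 16 complement genes, Cd55, which protects cells from complement, and Serping1, the C1 inhibitor, were called higher. Cd55 was at 2.01, 1.5 and 1.12 FPKM at day 5 and 7.2 and 3.58 FPKM at day 14 (adjusted p = 0.0234). Serping1 was at 1.09, 1.26 and 0.564 FPKM at day 5 and 8.6 and 2.15 FPKM at day 14 (adjusted p = 0.0381). Neither was called with any 1 day 5 library left out. The list's median log2 fold change was 0.057, and it was -0.302 without day 14 replicate 1 and 0.248 without replicate 2. Replicate 1 held the higher day 14 value of 15 of the 16 genes. The C1q chains had log2 fold changes of 0.17 to 0.31.

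Of 15 integrin genes 3 were called lower, and none was called lower with any 1 day 5 library left out. Itga5, the fibronectin receptor chain, fell from 218, 199 and 194 at day 5 to 139 and 84.8 FPKM at day 14 (log2 fold change -0.85, SE 0.20, adjusted p = 0.0424). Itgb7 fell from 62.4, 58.1 and 63.99 at day 5 to 42.1 and 23.3 FPKM at day 14 (log2 fold change -0.91, SE 0.21, adjusted p = 0.0436). Itga1, a collagen receptor chain, had a log2 fold change of -0.96. Itgax was the 1 called higher, and its partner chain Itgb2 had a log2 fold change of 0.22. Of 24 genes of axon guidance and adhesion 1 was called, Sema6d, a transmembrane semaphorin, at 0.316, 0.304 and 0.358 at day 5 and 0.699 and 0.756 FPKM at day 14 (log2 fold change 1.18, SE 0.28, adjusted p = 0.0481). Plxnb2, the most abundant plexin here, was at 133 ± 5.18 and 133 ± 1.22 FPKM, and Ninj1, an adhesion protein first described in injured nerve, at 646 ± 85.6 and 492 ± 124 FPKM (adjusted p = 0.218).

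Immediate early genes, which many stimuli induce within minutes, gave 5 higher calls and 1 lower among 26 tested, with a median of 0.39. The bridge tissue of both days was digested before the sort, and the part of that step in these levels was not tested. The higher calls were 3, 1 and 1 without day 5 replicates 1, 2 and 3 and 8 and 2 without day 14 replicates 1 and 2. Jun was at 112, 92.4 and 94.5 FPKM at day 5 and 247 and 315 FPKM at day 14 (log2 fold change 1.51, SE 0.19, adjusted p = 0.00926). Fos was at 262, 306 and 367 at day 5 and 535 and 819 FPKM at day 14 (log2 fold change 1.13, SE 0.20, adjusted p = 0.0209). Egr1 was at 82.2, 57.1 and 80.3 at day 5 and 189 and 192 FPKM at day 14 (log2 fold change 1.39, SE 0.30, adjusted p = 0.0383). Klf2, which restrains inflammatory genes, was at 99.8, 100.1 and 123 at day 5 and 161 and 242 FPKM at day 14 (log2 fold change 0.92, SE 0.20, adjusted p = 0.0374), and Ier2 was the remaining 1 called higher (0.95). The heat shock genes Hspa1a and Hspa1b, near-identical in sequence, were at 71.2 ± 55.3 and 66.6 ± 57.6 FPKM at day 5 and 236 ± 79.6 and 253 ± 99.5 FPKM at day 14 and were not called. Fosl1, a partner of Jun, was the 1 called lower (6.33, 7.91 and 6.04 at day 5 and 2.83 and 1.93 FPKM at day 14; log2 fold change -1.50, SE 0.27, adjusted p = 0.0211).

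Of 24 transcription factor genes of macrophages, Myc (9.55, 8.4 and 7.79 at day 5 and 16.8 and 16.6 FPKM at day 14; log2 fold change 0.97, SE 0.21, adjusted p = 0.0369) and Irf4, a factor of IL-4 responses (3.2, 3.66 and 3.07 at day 5 and 8.91 and 4.84 FPKM at day 14; log2 fold change 1.06, SE 0.22, adjusted p = 0.0337), rose with Klf2, and Tfec, a relative of Mitf, fell (24.3, 25.1 and 17.5 at day 5 and 14.3 and 10.02 FPKM at day 14; log2 fold change -0.87, SE 0.20, adjusted p = 0.0424). The lineage factors Sfpi1 (PU.1), Cebpb and Irf8 had log2 fold changes of -0.02, -0.28 and 0.16, none past the threshold.

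Markers of other cell types were read out because some moved with the macrophage genes. The 20 fibroblast markers had a summed level of 47.1 to 114.7 FPKM at day 5 and of 342.5 and 129.6 FPKM in day 14 replicates 1 and 2. Of these, 5 were called higher and 19 lay above 0, with a median log2 fold change of 1.55 (0.78 without day 14 replicate 1 and 2.09 without replicate 2), and none was at 0 in every library. The markers called were 2 and 10 without day 14 replicates 1 and 2, 2, 0 and 0 without day 5 replicates 1, 2 and 3, and 1 without either day 28 library. Col1a2, a chain of collagen I, was at 13.2, 8.09 and 6.3 FPKM at day 5 and 48.1 and 18.4 FPKM at day 14 (log2 fold change 1.86, SE 0.39, adjusted p = 0.035). Sparc, a matrix glycoprotein, was at 14.5, 7.41 and 7.87 at day 5 and 42.8 and 17.1 FPKM at day 14 (log2 fold change 1.59, SE 0.37, adjusted p = 0.0447). Postn, periostin, was at 1.9, 0.895 and 0.514 at day 5 and 9.54 and 4.96 FPKM at day 14 (log2 fold change 2.71, SE 0.44, adjusted p = 0.0184; chr3:54361109-54391037). Bgn and Col6a1 were also called higher (1.56 and 2.56). The sort excluded Thy1.2-positive cells, and Thy1 was at 2.06, 0.855 and 1.04 at day 5 and 1.22 and 0.929 FPKM at day 14. Cxcl12, Mmp2, Serping1 and Plekhg5 shared with these markers the order of the day 14 libraries, replicate 1 above replicate 2. This order was not particular to fibroblast markers. It also held for all 32 interferon-stimulated genes, all 11 class II genes and 15 of 16 complement genes, but for 3 of 22 cholesterol synthesis genes. The part of fibroblasts in the values of Cxcl12, Mmp2, Serping1 and Plekhg5 was not tested.

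The 7 tested genes of T and NK cells had a median log2 fold change of 1.31, with 6 above 0, 5 higher at an unadjusted p under 0.05 and 2 called higher by DESeq2. The summed level of the list was 8.6 to 10.4 FPKM at day 5 and 23.1 and 22.5 FPKM at day 14. The one gene called by edgeR was Cd4, which macrophages can also express, at 3.63, 2.3 and 2.82 FPKM at day 5 and 13.1 and 7.54 FPKM at day 14 (log2 fold change 1.83, SE 0.28, adjusted p = 0.0157). The defining T cell genes Cd3e, Cd3d and Cd3g were at 0.107, 0.117 and 0 FPKM on average at day 5 and 0.113, 0.320 and 0.249 FPKM at day 14, too low to be tested. Cspg4, the proteoglycan NG2 of pericytes, was the 1 called of 7 tested pericyte and muscle cell genes, at 0.371, 0.309 and 0.25 at day 5 and 1.53 and 1.19 FPKM at day 14 (log2 fold change 2.13, SE 0.22, adjusted p = 0.00554), with Rgs5 at 0.179 ± 0.168 and 0.286 ± 0.13 FPKM and Myh11 too low to be tested. The 10 tested neutrophil genes had a median log2 fold change of 0.81, with 6 higher and 1 lower at an unadjusted p under 0.05 and 2 higher and 1 lower called by DESeq2. Mmp8, called lower, was the only one that edgeR called. The summed level of the 15 neutrophil markers was 347 to 381 FPKM at day 5 and 631.7 and 619.5 FPKM at day 14, mostly S100a8 and S100a9, with Elane and Stfa1 at 0 in all 5 libraries. Irf4 was the 1 called of 14 tested dendritic cell genes, of which 10 lay above 0, with a median log2 fold change of 0.335. The median was -0.09 without day 14 replicate 1 and 0.68 without replicate 2. Replicate 1 held the higher day 14 value of 13 of the 14 genes. Flt3 and Zbtb46, which define dendritic cells, had log2 fold changes of -0.61 and 0.94.

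Among 7 Schwann cell, 13 endothelial, 2 B cell, 4 eosinophil and mast cell and 4 muscle and fat genes that could be tested, none was called by edgeR (1, 4, 1, 2 and 0 at an unadjusted p under 0.05). DESeq2 called 1 endothelial and 1 B cell gene. Pecam1, an endothelial gene that leukocytes also express, was at 11.4, 4.91 and 8.04 at day 5 and 3.51 and 3.28 FPKM at day 14 (adjusted p = 0.0784).

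Genes called lower outside the stricter set had longer transcripts than all genes tested, and those in it did not, given here as a description. The longest annotated transcript (GENCODE vM21) had a median of 4241 bases for 236 of the 249 genes called lower, 3414 bases for 353 of the 365 called higher, and 3354 bases over 12073 of the genes tested. Of the genes called lower that were outside the stricter set, 38.0% had a transcript over 6000 bases, against 14.0% of all genes. Of those in the stricter set it was 6.1%. The median was 4678 bases for the genes called lower outside the stricter set and 2662 bases for those in it. When all genes were divided by length into 10 bins of nearly equal size, the median log2 fold change went from 0.063 in the shortest bin to -0.114 in the longest, which held 58 of the genes called lower and 28 of those called higher. The part of transcript length in these decreases was not tested.

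The first step was compared with the second, from day 14 to day 28, to see which genes differed between the steps. The second step uses the same day 14 libraries. At an adjusted p under 0.05, 2 of the 12858 genes (0.0156%) differed between the steps. G0s2, an inhibitor of lipolysis, was at 18.4, 23.6 and 25.5 FPKM at day 5, 60.1 and 68.5 FPKM at day 14 and 22.2 and 15.8 FPKM at day 28, with log2 fold changes of 1.53 and -1.74 (difference 3.27, adjusted p = 0.0298). Igf2bp2, an RNA-binding protein, was at 7.82, 8.05 and 8.34 FPKM at day 5, 4.09 and 3.2 FPKM at day 14 and 10.1 and 9.0 FPKM at day 28, with log2 fold changes of -1.14 and 1.40 (difference -2.54, adjusted p = 0.0298). G0s2 was thus high at day 14 alone and Igf2bp2 low at day 14 alone among the 3 time points. The day 14 libraries enter both steps with opposite sign, so a turn at day 14 and a level particular to those 2 libraries cannot be told apart. Genes that differ between the steps need not turn at day 14, since a rise followed by a steady level also makes the steps differ. In edgeR's test the number of such genes was 0 without each of the day 5 libraries (1218 to 1334 genes at an unadjusted p under 0.05), 273 and 206 without day 14 replicates 1 and 2, and 19 without day 28 replicate 2.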

How the data were processed

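Per the labels and methods, poly(A)+ RNA of sorted macrophages was sequenced single-end, and the authors trimmed reads with cutadapt 1.8, aligned them to mm10 with TopHat2 2.0.13 and quantified 23361 genes with Cuffdiff 2.2.1. The deposited table holds expected counts of fragments (the raw fragment column, 1.49% of nonzero values not whole), the same values scaled between libraries by the authors (a signal column, used only to recover the library scaling) and FPKM. Whether counting used strand is not given in the sources used here.

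Expected counts were rounded and fitted in edgeR 4.0.16 (R 4.3.3) with TMM factors, the default expression filter by day and the quasi-likelihood test on all 7 libraries, with no replicate block, and day 14 was contrasted with day 5. FPKM was used for levels and for the stricter set. DESeq2 1.42.0 and limma 3.58.1 (pseudocounts 1 and 0.1) were alternatives, besides other scalings, no filter, fewer libraries and a block. Tables and figures used Python 3.11.15, numpy 2.4.6, pandas 2.3.3, scipy 1.17.1 and matplotlib 3.10.9.

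Genes were named by these rules: the 15 largest increases and 15 largest decreases of the stricter set, up to 4 called members per direction and list by p (or the 2 most abundant where fewer than 2 were called), called cell type markers, the genes whose steps differed, and the largest gain and loss of mean FPKM. The comparison, the lists and the motifs were chosen with earlier results of these data known. Other list members named beside a count, the division by transcript length and the genes of the closing observations were chosen after their values were seen. Same-numbered libraries of days 5 and 14 deviated together only weakly (r = 0.175 and 0.045 over 7613 genes, 2 pairs), and no label ties the numbers to an animal or day. Some genes are not reported here.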

Additional observations from a re-analysis of the deposited data

How the results depend on the processing

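The 614 genes called became 1366 with DESeq2, 1429 with no expression filter, 252 and 277 with limma on log2(FPKM + 1) and log2(FPKM + 0.1), 315 with only days 5 and 14 fitted, and 24 at an adjusted p under 0.01, and ranged from 52 to 1728 with 1 library left out. The 150 genes of the stricter set became 94 with limma on log2(FPKM + 1) and 252 with a minimum mean of 1 FPKM, and ranged from 42 to 184 with 1 library left out, the lowest values (44, 63 and 42) being those without day 5 replicates 1, 2 and 3. The 2 genes whose steps differed became 197 with DESeq2, 229 with no filter, 0 with limma at pseudocount 1 or 0.1 (1592 and 1556 genes at an unadjusted p under 0.05) and 0 at an adjusted p under 0.01, and ranged from 0 to 273 with 1 library left out. With only days 5 and 14 fitted, the second step has no value. The causes were not tested. Blocking on replicate number left 6 calls, 5 in the stricter set and 0 for the difference of steps, on 2 residual degrees of freedom against 4. The numbers were not shown to pair the libraries, so a call lost there is not a weaker effect. Other scalings (RLE and the Cuffdiff factors) moved the median of all genes by -0.010 and -0.009 on the log2 scale and gave 576 and 586 calls. Of 136 named genes tested, 108 were called. The days did not overlap for the called genes, which fixes their direction when a library is left out. Genes that were not called could turn, as Ccl8 did from 0.06 to -1.08 without day 14 replicate 1 and Irf7 from -0.22 to 0.27 without replicate 2. Of the 108, 84, 67 and 84 lost the call without day 5 replicates 1, 2 and 3, 9 and 40 without day 14 replicates 1 and 2, and 37 and 39 without day 28 replicates 1 and 2. Values at or under the floor of 3 fragments in a library are limited by depth.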

Other observations

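A group of genes known from osteoclasts, the bone-resorbing cells of the macrophage lineage, was read out after Ctsk and Atp6v0d2 were seen among the largest increases, so its values are a description. Of 10 such genes tested, 5 were called higher and none lower, these 2 included, and without them 3 of 8 were called higher, against 2.84% of all genes. Acp5, the tartrate-resistant acid phosphatase, was at 92.5, 67.7 and 53.8 FPKM at day 5 and 152 and 157 FPKM at day 14 (log2 fold change 1.12, SE 0.20, adjusted p = 0.0219). Dcstamp, a membrane protein needed for cell fusion, was at 0.366, 1.14 and 0.382 FPKM at day 5 and 4.59 and 4.75 FPKM at day 14 (log2 fold change 2.92). Ocstamp, of related function, was at 0.655, 0.83 and 0.858 FPKM at day 5 and 2.11 and 2.41 FPKM at day 14 (log2 fold change 1.54). Nfatc1, the transcription factor of osteoclast formation, was at 12.9, 15.9 and 16.01 at day 5 and 19.1 and 24.1 FPKM at day 14 (adjusted p = 0.0562), and Tnfrsf11a, the receptor RANK, at 25.1 ± 1.02 and 25.6 ± 1.65 FPKM (log2 fold change 0.04), so neither was called.

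A further 16 mitosis genes outside the list were also chosen after values were seen, so their count is a description and no further evidence. Of these, 8 were called higher and none lower, against 2.84% called higher of all genes tested. Cdca3, which acts at mitotic entry, was at 1.44, 2.04 and 1.52 FPKM at day 5 and 4.81 and 5.05 FPKM at day 14 (log2 fold change 1.58, SE 0.27, adjusted p = 0.0205), and Ndc80, a kinetochore protein, at 0.739, 1.02 and 1.0 at day 5 and 2.43 and 2.65 FPKM at day 14 (log2 fold change 1.48, SE 0.28, adjusted p = 0.0272). Pla2g2d, a secreted phospholipase, had 6, 8 and 10 fragments in the day 5 libraries and 214 and 131 in those of day 14 (log2 fold change 4.60). Scd1, which makes monounsaturated fatty acids, had 23, 35 and 23 fragments at day 5 and 62 and 430 at day 14, so its higher level lay mostly in replicate 2.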
